A study of Mus musculus with 6 samples.

Results

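The genes described here are 32 genes of cholesterol and fatty acid synthesis and of the SREBP system that regulates them, followed across single-cell libraries of germ cells from fetal mouse testes. They were listed by their known function, and the rule for a place on the list uses no measured value, although the list was drawn up with earlier results of these data known. Of the 27998 gene symbols in the deposited table, all 32 on the list were present, and all 32 were among the 11540 genes with enough counts to be tested. The list holds 7 genes of the mevalonate pathway, 11 of the steps from squalene to cholesterol, 6 SREBP regulators or sterol carriers, and 8 of fatty acid synthesis.

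The libraries came from male germ cells at embryonic day 14.5, on a background given as mixed C57/B6 and 129. Cells were sorted by flow cytometry for the red fluorescent protein tdTomato and processed with 10x Genomics v2 chemistry, which counts each captured molecule once at its 3′ end through a unique molecular identifier (UMI). The 3 control libraries are labelled wildtype and the 3 others Rb1 cKO, in which the retinoblastoma gene was conditionally knocked out. The labels used here give neither the Cre driver, nor the deleted part of Rb1, nor whether the controls carried Cre. They also do not say that the replicates of a group were separate animals, and the p-values given here then reflect only how far these libraries differ from each other, which may be technical.

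Cells make cholesterol from acetyl-CoA. The mevalonate pathway builds isoprenoid units and joins them to farnesyl diphosphate, squalene is made from that, and a series of enzymes closes and trims the rings. When membrane sterol is low, the escort protein SCAP carries the transcription factors SREBP1 and SREBP2 out of the endoplasmic reticulum, they are cleaved, and the released parts switch on the genes of sterol and fatty acid synthesis. INSIG proteins hold SCAP back when sterol is plentiful. In the testis these pathways are best known from steroid hormone synthesis in Leydig cells, but dividing cells of any kind also need sterols and fatty acids for new membrane.

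Promoter sequence was looked at because SREBP, NF-Y and Sp1 are known to act together close to the start sites of these genes. The RefSeq promoter table for GRCm38.p6, the build also called mm10, covers 250 bases before to 50 bases after a start site, and it matched 25 of the 32 genes. Both strands were searched for 4 motifs, and a gene with several start sites was counted when any of its windows held the motif. The NF-Y box CCAAT was in 20 of the 25 genes (80%), and in 41.1% of all 27025 genes of the table. The GC box GGGCGG was in 21 of 25 (84%), and in 38.2% of all genes. The E-box CACGTG was in 5 of 25 (20%), and in 8.09% of all genes. The sterol regulatory element core TCACNCCAC, a motif to which SREBP binds, was found in 1 of 25 genes, Hmgcs1 (4%), and in 1.44% of all genes. A match is a description of the letters, and a window without one says nothing of whether the factor binds. The 4 stretches shown carry the motifs in 3 of the role groups. Insig1, Mvd and Fasn are also among the genes whose levels are given by cell cluster. Capitals mark the TCACNCCAC core, CCAAT or its reverse complement ATTGG, and CACGTG, while GC boxes are left in lower case; in Fasn one CCAAT and one ATTGG overlap. Each is written 5′ to 3′ on the strand of its gene. Hmgcs1 is shown at chr13:119690201-119690320 (plus strand), Mvd at chr8:122443433-122443522 (minus strand), Insig1 at chr5:28071182-28071351 (plus strand) and Fasn at chr11:120824558-120824667 (minus strand).
Hmgcs1: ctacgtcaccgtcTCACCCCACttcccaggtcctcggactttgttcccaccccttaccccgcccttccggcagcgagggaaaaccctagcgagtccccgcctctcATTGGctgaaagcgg
Mvd: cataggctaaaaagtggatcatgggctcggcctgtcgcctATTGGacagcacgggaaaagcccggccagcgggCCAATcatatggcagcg
Insig1: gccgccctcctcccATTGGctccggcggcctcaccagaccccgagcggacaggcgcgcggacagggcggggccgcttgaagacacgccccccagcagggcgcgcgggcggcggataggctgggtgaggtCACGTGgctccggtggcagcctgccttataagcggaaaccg
Fasn: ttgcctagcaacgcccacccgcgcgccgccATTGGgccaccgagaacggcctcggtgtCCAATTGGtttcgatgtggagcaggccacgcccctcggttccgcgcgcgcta

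Control 3 stood apart from the other libraries in some measures, and these values are given beside the results they touch. After a filter that kept 5154 of 5160 barcodes, the libraries held 430 to 1354 cells and 7598511 to 17323152 UMIs. The median number of UMIs per cell was lowest in control 3, at 12748.5, and lay between 13300 and 17602 in the others. Only 9 barcode sequences occurred in more than 1 library. Levels are given as CPM, a gene's UMI count scaled to the total of its library. For Rb1 they were also scaled with the TMM factors given below, and for the cell type markers they were not. Rb1 itself stood at 10.3, 8.65 and 7.13 CPM in the controls and at 3.35, 3.73 and 3.64 CPM in the cKO libraries. Its groups thus did not overlap (log2 fold change -1.27 ± 0.19 SE, adjusted p = 0.415 by edgeR). A 3′ count can lie outside the deleted part of the gene, which the labels do not give. Germ cell markers (10 of 10 detected) summed to 9676 ± 541 CPM over the controls and to 9395 ± 424 CPM over the cKO libraries (SD, n = 3 each). The 7 fetal Leydig cell markers summed to between 0.768 and 1.49 CPM in every library, and 2 of them had no UMI at all. The 10 Sertoli cell markers summed to 32.3 CPM in control 3 and to between 8.13 and 15.1 CPM elsewhere. The 7 macrophage markers summed to 50.3 CPM in control 2 and to between 1.51 and 4.44 CPM elsewhere, and a single gene of that list, Pf4, had 47.1 CPM in control 2 and at most 0.635 CPM in any other library.

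None of the 32 genes passed the test between cKO and control libraries, and their fold changes were spread about evenly around 0. By edgeR's quasi-likelihood test on counts summed per library, 0 of 32 passed an adjusted p of 0.05, beside 0.0% of all 11540 genes tested, and 0 of 32 had an unadjusted p under 0.05, as 405 of all genes did. Of the 32, 17 had a positive and 15 a negative log2 fold change. Their median was 0.0041 on the log2 scale, and the median of all genes tested was 0.00010, with 50.1% of genes positive. The genes ranged from Acaca at -0.29 to Nsdhl at 0.27. In counts summed over a library, fewer cells of a type and less RNA per cell cannot be told apart. Levels below are CPM scaled with TMM factors, which ran from 0.965 in control 3 to 1.03 in cKO 1. They count captured molecules and were not divided by gene length.

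**Figure D1:**
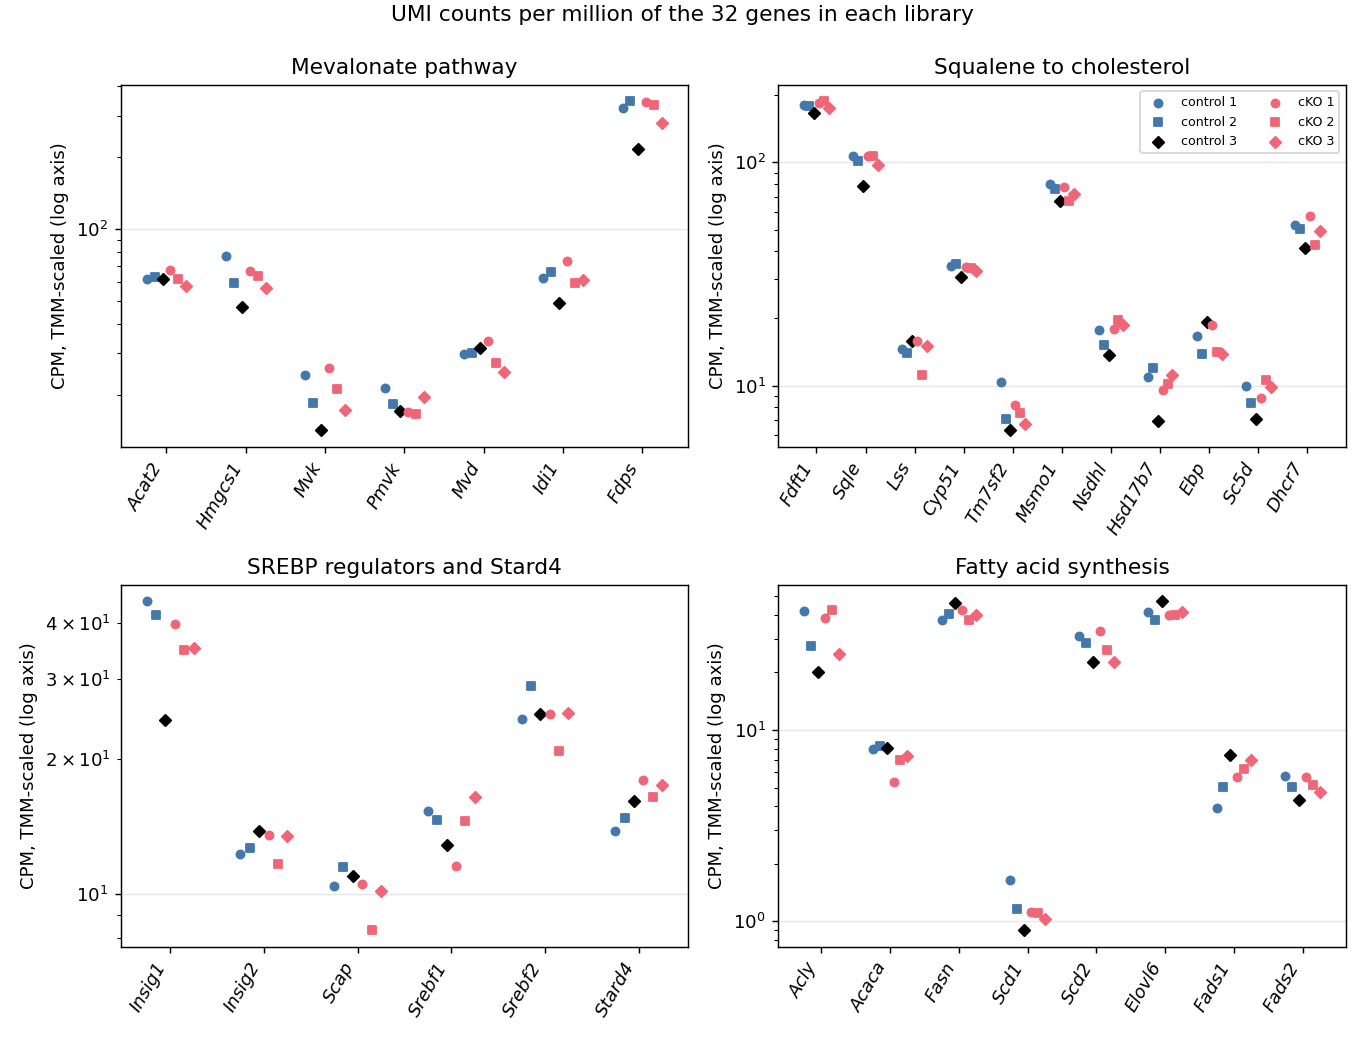
Level of each of the 32 genes (CPM, TMM-scaled, log axis) in each library, in 4 role groups; controls are blue or black, with control 3 as black diamonds, and cKO libraries are red. Control 3 is the lowest point for 13 of the 18 genes in the upper 2 panels and the highest for Fasn, Elovl6 and Fads1 in the lower right panel.

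The mevalonate pathway held the most abundant gene of the list, and 4 of its 7 genes were lowest in control 3. Fdps, which makes farnesyl diphosphate, stood at 323, 344 and 217 CPM in the controls and at 342, 332 and 278 CPM in the cKO libraries. The groups overlapped, and control 3 was the lowest library (log2 fold change 0.11 ± 0.18 SE, adjusted p = 0.994 by edgeR). Exons of the gene model Gm43738 overlap those of Fdps on the same strand, so how reads were divided between them is uncertain. Idi1, which interconverts the 2 isoprenoid building blocks, had 62.1, 66.2 and 48.7 CPM in controls and 73.3, 59.4 and 60.9 CPM in cKO libraries, again with control 3 lowest (0.13 ± 0.13). Mvk, the kinase that phosphorylates mevalonate, had 24.4, 18.5 and 14.2 CPM in controls and 26.0, 21.3 and 17.4 CPM in cKO libraries (0.18 ± 0.22). In both groups of Mvk the values spread widely and overlapped. Acat2, the cytosolic thiolase that starts the pathway, was even across libraries, at 61.7, 63.0 and 61.4 CPM in controls and 67.3, 61.7 and 57.5 CPM in cKO libraries (0.0024 ± 0.08). Mvd, which removes a carboxyl group to form the isoprenoid unit, had 29.8, 30.0 and 31.5 CPM in controls and 33.6, 27.4 and 25.03 CPM in cKO libraries (-0.09 ± 0.12). For these 4 genes, too, the groups overlapped, and the adjusted p by edgeR was at least 0.994. Hmgcs1, which makes HMG-CoA, ran from 47.0 CPM in control 3 to 77.0 CPM in control 1. Pmvk, the next kinase after Mvk, ran from 16.6 CPM in cKO 2 to 21.4 CPM in control 1.

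Of the 11 genes from squalene to cholesterol, 9 were lowest in control 3, and 1, Nsdhl, was higher in every cKO library than in every control. Fdft1, the squalene synthase, had 180.2, 179 and 165 CPM in controls and 185, 187 and 175 CPM in cKO libraries (log2 fold change 0.06 ± 0.07 SE). Sqle, the epoxidase that is one of the rate-limiting enzymes, had 107, 102 and 78.6 CPM in controls and 106, 107 and 97.0 CPM in cKO libraries (0.11 ± 0.11). Msmo1, which oxidises the methyl groups at C4 of the ring, had 80.0, 76.3 and 66.8 CPM in controls and 77.9, 67.0 and 72.1 CPM in cKO libraries (-0.04 ± 0.10). In each of these 3 genes control 3 was the lowest library and the groups overlapped. Nsdhl, the dehydrogenase that follows Msmo1 and is encoded on the X chromosome, had 17.7, 15.2 and 13.7 CPM in controls and 17.9, 19.7 and 18.6 CPM in cKO libraries. The groups did not overlap, though the highest control and the lowest cKO library were close (0.27 ± 0.13, unadjusted p = 0.0575 and adjusted p = 0.994 by edgeR). Sc5d, a late desaturase of the ring, had 9.97, 8.39 and 7.07 CPM in controls and 8.82, 10.6 and 9.90 CPM in cKO libraries (0.22 ± 0.17), and its groups overlapped. The other 6 genes of this group overlapped between the groups as well. They ranged from Tm7sf2, at 6.29 to 10.4 CPM, to Dhcr7, the last reductase, at 41.5 to 57.6 CPM. Lss and Ebp were the 2 genes highest in control 3, at 15.9 and 19.2 CPM. Exons of Tm7sf2 overlap Vps51 on the same strand, and exons of Fdft1 and Cyp51 overlap Ctsb and Akap9 on the other strand, and the sources used here do not give the strand setting of the counting.

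Among the regulators, Insig1 was the only gene lowest in control 3 and Stard4 the only one whose groups did not overlap. Insig1, which retains SCAP in the endoplasmic reticulum and is itself a known SREBP target, had 44.7, 41.6 and 24.3 CPM in controls and 39.7, 34.9 and 35.2 CPM in cKO libraries. Control 3 had 0.620 times the mean of the other 5 libraries. The log2 fold change of Insig1 was -0.0038 ± 0.22 (SE) with all libraries and -0.24 ± 0.10 without control 3, where the adjusted p by edgeR was 1.0. Srebf2, which encodes the SREBP best known for sterol genes, had 24.4, 28.9 and 25.1 CPM in controls and 25.1, 20.8 and 25.3 CPM in cKO libraries (-0.14 ± 0.12). Srebf1, whose product is best known for fatty acid genes, had 15.3, 14.6 and 12.9 CPM in controls and 11.5, 14.5 and 16.5 CPM in cKO libraries (0.0079 ± 0.15). Its exons overlap Rai1 on the other strand. Scap had 10.4, 11.5 and 10.97 CPM in controls and 10.6, 8.32 and 10.1 CPM in cKO libraries (-0.18 ± 0.14). In Srebf2, Srebf1 and Scap the groups overlapped. Stard4, a soluble carrier of cholesterol, had 13.8, 14.7 and 16.1 CPM in controls and 17.9, 16.4 and 17.5 CPM in cKO libraries (0.21 ± 0.11, adjusted p = 0.994 by edgeR). Insig2, the second INSIG gene, ran from 11.7 CPM in cKO 2 to 13.8 CPM in control 3.

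The fatty acid genes were split across libraries: 3 of 8 were lowest and 3 of 8 highest in control 3. Fasn, the fatty acid synthase, had 37.4, 40.7 and 45.9 CPM in controls and 42.5, 37.5 and 40.2 CPM in cKO libraries (log2 fold change -0.05 ± 0.10 SE). Elovl6, which lengthens palmitate, had 41.5, 37.8 and 47.3 CPM in controls and 40.0, 39.8 and 41.3 CPM in cKO libraries (-0.07 ± 0.10). Both were highest in control 3, and their groups overlapped. Acly, which supplies cytosolic acetyl-CoA from citrate, had 42.2, 27.4 and 20.2 CPM in controls and 38.6, 42.6 and 24.9 CPM in cKO libraries, the widest relative spread among the genes of this group above 10 CPM (0.24 ± 0.34). Its log2 fold change was 0.0041 without control 3 and 0.58 without control 1. Acaca, the acetyl-CoA carboxylase that makes malonyl-CoA, had 7.96, 8.26 and 8.09 CPM in controls and 5.34, 6.97 and 7.29 CPM in cKO libraries. It was the only gene of the list lower in every cKO library than in every control (-0.29 ± 0.17, unadjusted p = 0.106 and adjusted p = 0.994 by edgeR), and it rested on 43 to 135 UMIs per library. Fads1, a desaturase of polyunsaturated fatty acids, had 3.93, 5.04 and 7.37 CPM in controls and 5.71, 6.26 and 6.99 CPM in cKO libraries (0.20 ± 0.24), and 0.52 ± 0.21 without control 3 (adjusted p = 1.0 by edgeR). Of the desaturases that make monounsaturated fatty acids, Scd2 ran from 22.7 to 32.8 CPM, and Scd1 only from 0.899 to 1.65 CPM with 9 to 18 UMIs per library. Fads2 ran from 4.32 CPM in control 3 to 5.76 CPM in control 1.

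Across the list, the groups did not overlap for 3 genes. Nsdhl and Stard4 were higher in all 3 cKO libraries, 2 of 32 genes, beside 4.71% of all genes tested. Acaca was lower in all 3, 1 of 32, beside 4.23% of all genes. These shares lie near the background.

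**Figure D2:**
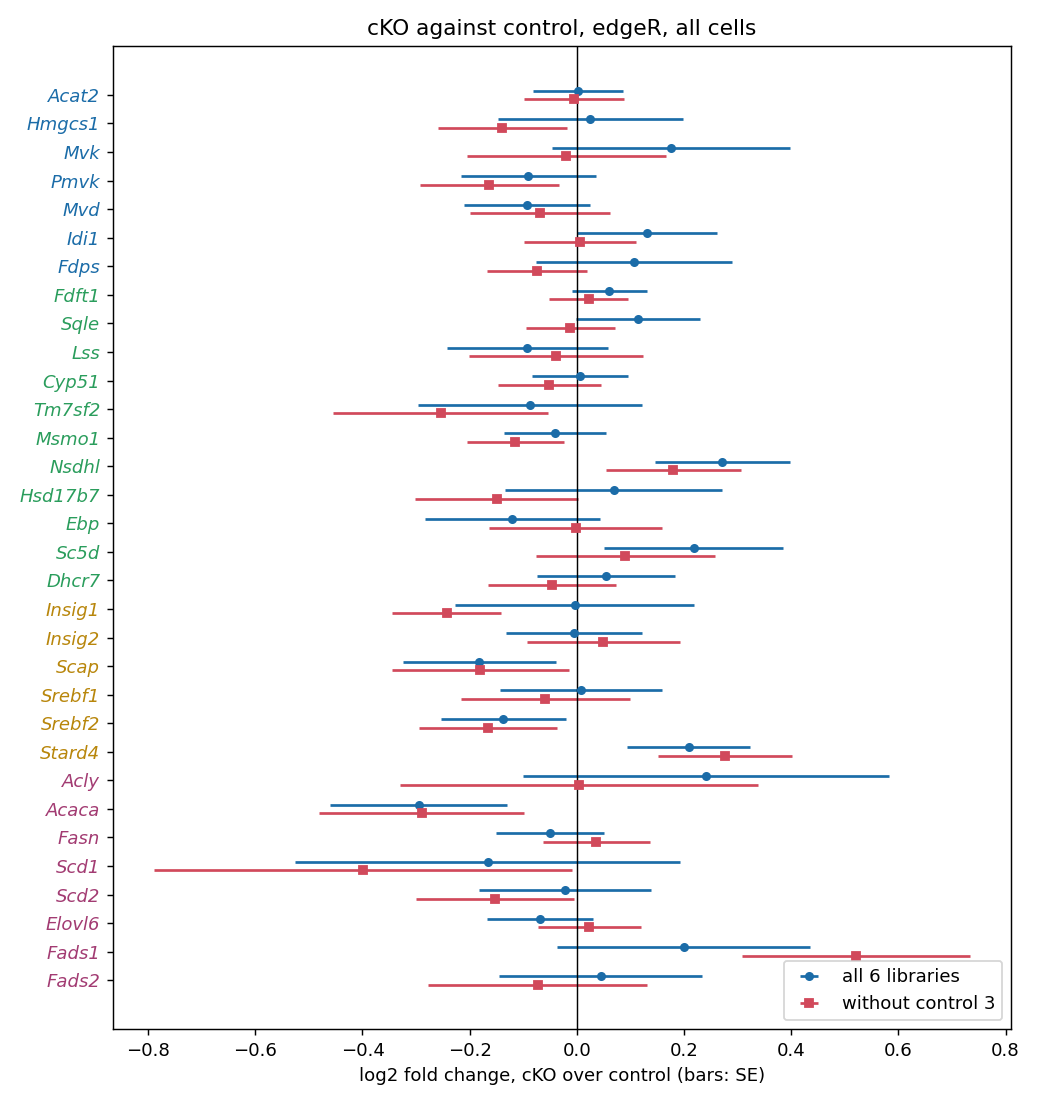
Log2 fold change of each gene, cKO over control, by edgeR, with all 6 libraries (blue circles) and without control 3 (red squares); bars are standard errors, and gene names are coloured by role group in the order mevalonate, squalene to cholesterol, regulators, fatty acid. With all libraries 17 of the 32 genes lie to the right of 0, and without control 3 only 10 do.

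Control 3 was the lowest of the 6 libraries for 17 of the 32 genes (53.1%), beside 24.3% of all genes tested. It was the highest for 6 (18.8%), beside 24.2% of all genes. No other library was lowest for more than 5 of the 32. The 18 sterol synthesis enzymes, from Acat2 to Dhcr7, made up most of this: control 3 was lowest for 13 of them (72.2%) and highest for 2, Lss and Ebp. Their summed level was 1134, 1112 and 889 CPM in controls 1 to 3 and 1165, 1092 and 1016 CPM in the cKO libraries. Control 3 thus held the lowest sum, and cKO 3 the second lowest. The median over the 18 enzymes of the ratio of control 3 to the mean of the other 5 libraries was 0.804, while over all genes tested it was 0.999. Among the enzymes it ran from 0.646 for Hsd17b7 to 1.25 for Ebp. It was 0.671 for Fdps, 0.660 for Mvk, 0.756 for Idi1, 0.757 for Sqle and 0.912 for Fdft1, and it was 0.986 for Acat2, 1.08 for Mvd and 1.13 for Lss. Outside the enzymes it was 0.620 for Insig1 and 0.575 for Acly, but 1.16 for Fasn, 1.18 for Elovl6 and 1.32 for Fads1.

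**Figure D3:**
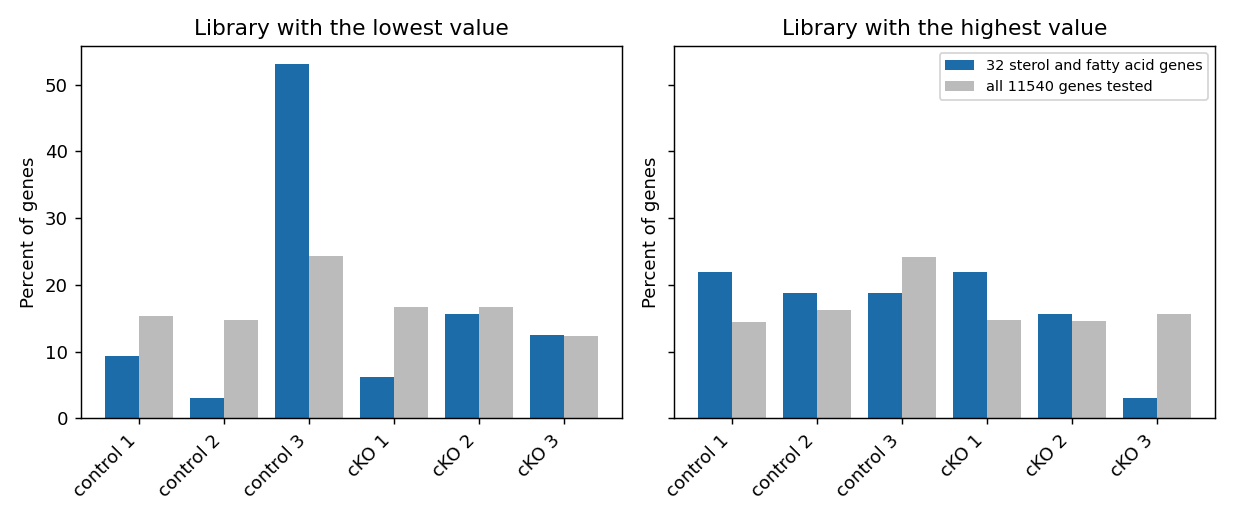
Percent of genes for which each library has the lowest (left) or the highest (right) of the 6 TMM-scaled CPM values, for the 32 genes (blue) and for all 11540 genes tested (grey). The bar for control 3 on the left stands at 53.1% for the 32 genes and at 24.3% for all genes.

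Other features of control 3 stand beside this position. Its cells had the lowest median UMI count. Among cells with at least 10000 UMIs alone it was lowest for 18 of the 32 genes, beside 23.9% of all genes. The authors' cluster 3 held 1.85% of the cells of control 3, and 7.04% to 9.42% of those of each other library. The part of this difference in the position of control 3 was not tested. The sum of the Sertoli cell markers was highest in control 3 among the 6 libraries. Of these markers, Sox9, Wt1 and Fgf9 were not highest in control 3, and the others were. The part of Sertoli cell RNA in the levels of the 32 genes was not tested. Single clusters of cells, an alternative chosen after seeing the data, were compared in CPM without TMM factors. On that scale control 3 was lowest for 19 of the 32 genes over all cells, beside 31.9% of all genes. Within clusters 0 to 3 it was lowest for 10, 19, 17 and 15 of 32 genes. The shares of all genes were 26.7%, 25.8%, 19.6% and 31.6%. In cluster 3, control 3 held 25 cells with 163299 UMIs, with 0 UMIs of Sc5d and 1 of Acly. There it was also highest for 7 of the 32, beside 25.2% of all genes. In cluster 0 the share for the 32 genes was thus 31.2%, close to that of all genes. Without control 3, 10 of the 32 genes in place of 17 lay above 0 on the log2 scale, the median was -0.05, and 0 passed an adjusted p of 0.05 by edgeR.

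Genes of the same pathways outside the list gave a share near that of all genes for control 3. Of 50 such genes in lists fixed by function, 42 were tested, 18 had a positive and 24 a negative log2 fold change, and 0 passed the test by edgeR (4 had an unadjusted p under 0.05). Control 3 was lowest for 11 of the 42 (26.2%). By list, it was lowest for 2 of 5 genes of sterol synthesis (40%) and highest for 0 of them. It was lowest for 5 of 17 genes of SREBP cleavage and sterol handling (29.4%) and for 4 of 20 fatty acid genes (20%). For the 5 sterol synthesis genes the median ratio of control 3 to the mean of the other 5 libraries was 0.945. Among 5 further sterol synthesis genes, Lbr, a sterol reductase of the inner nuclear membrane, averaged 76.7 ± 5.37 CPM over the controls and 78.1 ± 5.74 CPM over the cKO libraries (SD, n = 3 each). The means of Lbr differed by less than the spread between replicates. Of 17 tested genes of SREBP cleavage and of sterol uptake, transport, storage and efflux, 5 were positive and 12 negative, and the most abundant was Npc2, which carries cholesterol in lysosomes, at 87.4 ± 4.23 and 86.4 ± 6.21 CPM. Of 20 tested genes of fatty acid synthesis, elongation and activation, 10 were positive and 10 negative, and the most abundant was Tecr, the last reductase of fatty acid elongation, at 352 ± 61.6 and 383 ± 30.7 CPM.

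The authors' clustering of the same cells gave 5 numbered clusters without names. Cluster 0 (2210 cells) was led by Ccne1, a cyclin of the G1/S transition, and Chaf1b. Cluster 1 (1863 cells) was led by the mitotic genes Cdc20 and Ccnb1, and cluster 2 (640 cells) by histone genes such as Hist1h1e. Cluster 3 (343 cells) was led by Pf4 and Rpgrip1. Of these, Pf4 had 47.1 CPM over all cells of control 2 and at most 0.635 CPM in any other library. Cluster 4 (98 cells), led by Mgarp, had at least 20 cells in only 2 libraries and is left out of the comparison. Because the clusters were made from the expression of these cells, the differences between them are described with no test. Levels by cluster are CPM without TMM factors, as the mean and SD over the 6 libraries.

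Among clusters 0 to 3, most sterol enzymes were lowest in cluster 2, and 10 of 18 were highest in cluster 1. Of the 18 enzymes, 16 had their lowest mean in cluster 2 (88.9%), beside 31.6% of all genes tested, and 10 had their highest mean in cluster 1, beside 26.5% of all genes. Cluster 1 was above cluster 2 in all 6 libraries for 13 of the 18 (72.2%), which held for 13.0% of all genes, and cluster 2 was above cluster 1 in all 6 for 0 of 18, beside 10.1% of all genes. Cluster 0 was above cluster 2 in all 6 libraries for 11 of 18 (61.1%), beside 10.0% of all genes. The median log2 ratio over the 18 enzymes was 0.43 for cluster 1 over cluster 2 and 0.34 for cluster 0 over cluster 2, and over all genes it was 0.02 and 0.01. Clusters 0 and 1 were less separate, with 5 of 18 enzymes higher in cluster 1 and 3 higher in cluster 0 in all 6 libraries.

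**Figure D4:**
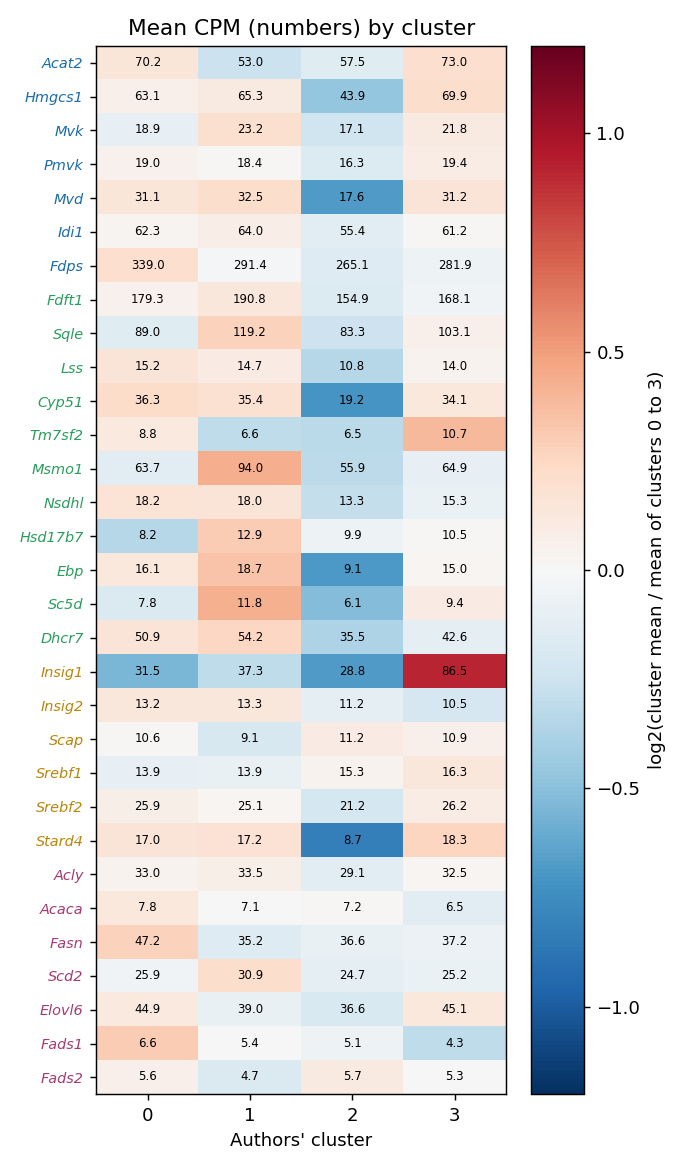
Mean CPM over the 6 libraries (numbers) of 31 genes in the authors' clusters 0 to 3, coloured by the log2 ratio of each cluster's mean to the mean of the 4 clusters; gene names are coloured by role group as in the plot of fold changes, and Scd1, at most 2.05 CPM in any cluster, is not drawn. Cluster 2 is blue for most sterol enzymes, and Insig1 is dark red in cluster 3 alone.

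Single enzymes differed in size of this pattern. Mvd had 32.5 ± 3.99 CPM in cluster 1 and 17.6 ± 1.26 CPM in cluster 2, a ratio of 1.85, and was higher in cluster 1 in 6 of 6 libraries. Cyp51, which removes the methyl group at C14 of lanosterol, had 36.3 ± 1.69 CPM in cluster 0 and 19.2 ± 5.51 CPM in cluster 2, a ratio of 1.89, in 6 of 6 libraries. The abundant Fdps and Fdft1 differed less: Fdps had 339 ± 59.1 CPM in cluster 0 and 265 ± 62.2 CPM in cluster 2, and Fdft1 had 191 ± 12.5 CPM in cluster 1 and 155 ± 15.7 CPM in cluster 2, each in 6 of 6 libraries. Msmo1 was set apart in cluster 1, with means of 63.7, 94.0, 55.9 and 64.9 CPM in clusters 0 to 3, and cluster 1 was above clusters 0 and 2 in all 6 libraries. Acat2 ran the other way between the large clusters, at 70.2 ± 4.30 CPM in cluster 0 and 53.0 ± 7.35 CPM in cluster 1.

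Insig1 had its highest level in cluster 3. Its values there were 121.9, 90.2 and 49.0 CPM in controls 1 to 3 and 89.1, 80.0 and 88.6 CPM in the cKO libraries, where no library exceeded 47.5 CPM in clusters 0 to 2. The mean was 86.5 ± 23.4 CPM in cluster 3 and 28.8 ± 7.68 CPM in cluster 2, a ratio of 3.0, and cluster 3 was higher in 6 of 6 libraries. The value of control 3 in cluster 3 came from 25 cells with 8 UMIs of Insig1 and a median of 4654 UMIs per cell. Several marker lists of other cell types were also highest in cluster 3, while those of fetal Leydig cells and of mesonephric or surface epithelium were highest in cluster 1. The 7 macrophage markers, among them Pf4, summed to 85.4 CPM in cluster 3 and to at most 4.81 CPM in the other clusters. Pf4 had 47.1 CPM over all cells of control 2 and at most 0.635 CPM in any other library. The macrophage sum in cluster 3 thus rested mostly on Pf4 in control 2. In cluster 3 the 8 interstitial stroma markers summed to 29.2 CPM and the 10 Sertoli cell markers to 34.0 CPM, while germ cell markers stood at 9280 CPM. The part of other cell types in the level of Insig1 was not tested. Of the 18 sterol enzymes, 4 were highest in cluster 3.

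Among the other regulators and the fatty acid genes the clusters differed less regularly. Stard4 had 8.68 ± 2.56 CPM in cluster 2 and between 17.0 and 18.3 CPM in clusters 0, 1 and 3, and clusters 0 and 1 were each above cluster 2 in 6 of 6 libraries. Fasn was highest in cluster 0, at 47.2 ± 4.22 CPM, and had 35.2 ± 2.40 CPM in cluster 1, a ratio of 1.34 seen in 6 of 6 libraries. Elovl6 had 45.1 ± 12.1 CPM in cluster 3 and 36.6 ± 8.83 CPM in cluster 2, higher in 5 of 6 libraries, within the spread of the values. Of the 8 fatty acid genes, 4 were lowest in cluster 2, and 1 was above it in cluster 1 in all 6 libraries, beside 13.0% of all genes.

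**Figure D5:**
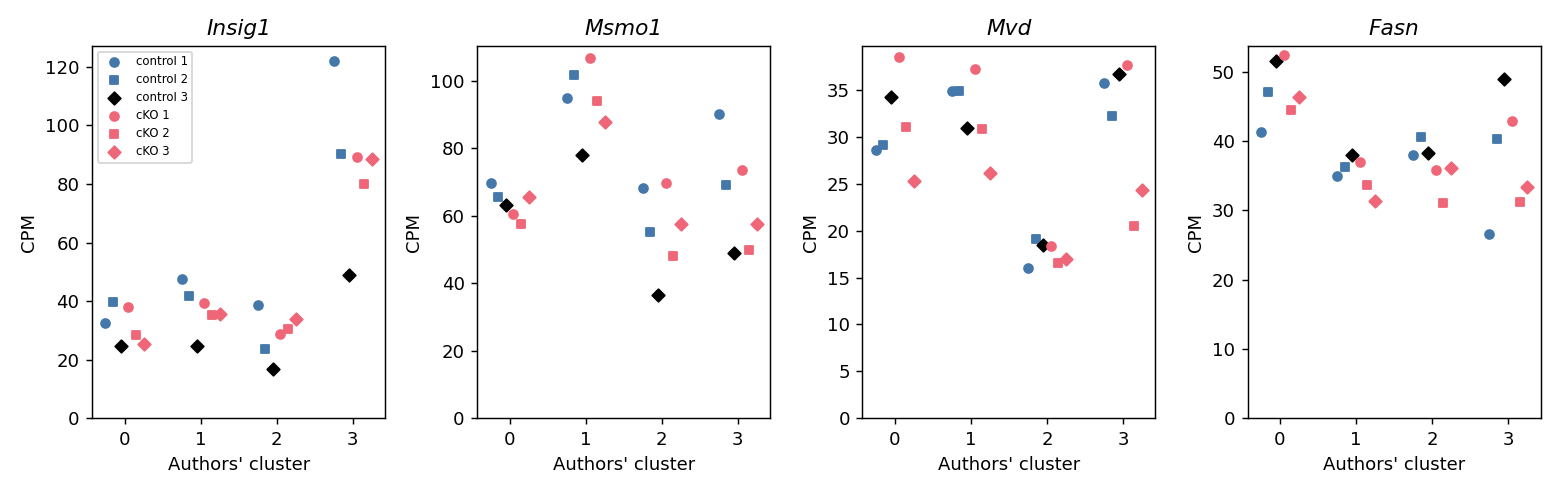
CPM of Insig1, Msmo1, Mvd and Fasn in each library (points; symbols as in the plot of levels by library) in the authors' clusters 0 to 3. Insig1 is highest in cluster 3 in every library, Msmo1 is higher in cluster 1 than in clusters 0 and 2, Mvd is lowest in cluster 2 in every library, and Fasn is higher in cluster 0 than in cluster 1.

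Within clusters, too, none of these genes passed the test between cKO and control libraries. In clusters 0 to 3, edgeR tested 10091, 9889, 7895 and 5996 genes, of which 0 passed an adjusted p of 0.05 in each (0.0%), while 392, 333, 319 and 202 had an unadjusted p under 0.05. Of the 32 genes, 31, 31, 27 and 22 were tested, and 18, 19, 16 and 9 of these had a positive log2 fold change. Nsdhl in cluster 1 (0.36 ± 0.16 SE), Elovl6 in cluster 2 (-0.47 ± 0.19) and Stard4 in cluster 2 (0.79 ± 0.33) had an unadjusted p under 0.05, with adjusted p of 1.0 by edgeR. For Stard4 in cluster 2 the TMM-scaled values were 7.67, 6.79 and 5.32 CPM in controls and 10.3, 10.6 and 11.9 CPM in cKO libraries, on 6 to 26 UMIs per library. For Elovl6 in cluster 2 they were 53.7, 37.3 and 38.5 CPM in controls and 30.1, 28.2 and 34.3 CPM in cKO libraries. In both the groups did not overlap. In cluster 0, Sc5d was higher in every cKO library than in every control, 1 of 31 genes beside 4.88% of all genes, and Cyp51, Scap and Acaca were lower, 3 of 31 beside 4.79%. In cluster 1, Fdft1, Nsdhl and Stard4 were higher, 3 of 31 beside 4.65%, and 0 were lower, beside 4.59%. In cluster 2, Stard4 was higher, 1 of 27 beside 4.47%, and Fasn and Elovl6 were lower, 2 of 27 beside 4.86%. In cluster 3, 0 of 22 were higher, beside 5.07%, and 0 lower, beside 4.49%. A direct test of whether the difference between cKO and control varied between clusters 0 to 3 passed for 0 of 10029 genes (474 at an unadjusted p under 0.05) and for 0 of the 31 genes of the list that it covered. The smallest unadjusted p among them was 0.0523, for Msmo1 (adjusted p = 0.999 by edgeR).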

How the data were processed

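UMI counts per gene and cell were deposited by the authors as whole numbers, and a second deposited file gave each barcode's sample and cluster number. Cell Ranger, Seurat 3.0 and the build mm10 are listed in the submitters' processing notes. Parameters, the annotation release and any earlier cell filter were not given in the sources used here. Barcodes were matched to 1 sample each with 0 mismatches. Barcodes with fewer than 500 genes or with 10% or more of mitochondrial UMIs were removed, 6 in all. Doublets were not called.

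Counts were summed per library, or per library and cluster where all 6 libraries had at least 20 cells, so the library was the replicate. The sums were tested with edgeR 4.0.16 in R 4.3.3 (robust quasi-likelihood test, two-sided, filterByExpr, TMM factors, no covariate). The SE of a log2 fold change was derived from this test, as its absolute value divided by the square root of the F statistic. P-values were adjusted by Benjamini-Hochberg across every gene tested and judged at 0.05. The interaction between cluster and group was tested with the sample as a block. Totals of 7598511 to 17323152 UMIs per library set the precision of low genes, with Scd1 at 9 to 18 UMIs.

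Each library's values, fold change and SE were given, in each of 4 role groups, for the 3 genes highest in mean CPM and the 2 further genes with the smallest unadjusted p. By cluster, the genes named were the highest in mean CPM of each role group and the one with the largest ratio between clusters at 20 CPM or more. Msmo1, Acat2 and Stard4 by cluster, Hmgcs1 and the unadjusted p-values within clusters were added after their values were seen. The members and lists were chosen with earlier results of these data known. Alternatives were DESeq2 1.42.0, RLE factors, no low-count filter, a replicate block, all barcodes, deeper cells, equally weighted clusters and leaving out each library. Gene positions and overlapping exons were read from GENCODE M21 on GRCm38, and promoter sequences came from RefSeq. Some results of the wider pathway lists are not reported here.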

Additional observations from a re-analysis of the deposited data

How the results depend on the processing

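Under the 13 alternatives to the comparison of all cells, 0 of the 32 genes passed the test. The count over all genes was 0 in the main comparison of all cells. With all libraries it was 3 by DESeq2, 6 with no low-count filter and 0 in the other alternatives. It was 0 to 4 when 1 library was left out, with 4 without control 3. The number of the 32 genes with a positive log2 fold change was 10 to 22 when 1 library was left out, against 17, and 10 was the value without control 3. Of 260 values of the 20 genes given in full, 23 in 9 genes changed sign, and the smallest adjusted p by edgeR or DESeq2 was 0.564. The cause of these changes was not tested. Acat2 stood at -0.0031 with RLE factors, -0.0030 by DESeq2, -0.0096 in cells with at least 10000 UMIs and -0.066 with clusters weighted equally, where Srebf1 was -0.089. Leaving out 1 library gave -0.073 to 0.23 for Fdps, -0.057 to 0.057 for Acat2, -0.019 to 0.40 for Mvk, -0.012 to 0.20 for Sqle, -0.11 to 0.017 for Msmo1, -0.24 to 0.17 for Insig1, -0.12 to 0.12 for Srebf1, -0.14 to 0.023 for Elovl6 and -0.12 to 0.037 for Fasn.

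Same-numbered libraries of the groups correlated at -0.14, 0.26 and 0.19 in their deviations from the group means, so the labels' numbers were not taken to pair them. With the replicate block, 0 genes passed the test in all cells, 18 of the 32 were positive, Insig1 had 0.040, and 1 gene in place of 0 passed in cluster 3. Controls 2 and 3 correlated best with the cKO library of their own number and control 1 with cKO 2, a hint from the data and not from the design.

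Within clusters 0 to 3, 15, 8, 3 and 17 genes passed with no low-count filter, in place of 0. When 1 library was left out, 0 to 2 genes passed in clusters 0, 1 and 2, and 0 to 3 in cluster 3. The test of a difference between clusters gave 7 genes with no low-count filter. Control 3 was lowest for 10 of the 32 genes in cluster 0. In CPM without TMM factors over all cells, control 3 was lowest for 19 of the 32, beside 31.9% of all genes. On that scale it was highest for 3, beside 17.5% of all genes. Within clusters 0 to 3 it was highest for 3, 3, 0 and 7 of the 32. The shares of all genes highest in control 3 were 16.8%, 16.7%, 15.6% and 25.2%. The settings within clusters were chosen after seeing the data. Ratios between clusters of the 7 genes named by rule moved by less than their spread in both alternatives.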

Other observations

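Cluster 4, led by Mgarp and B930036N10Rik, held at least 20 cells only in control 3 (27 cells) and cKO 3 (20 cells). Its levels are therefore given for these libraries alone. Fdps had 172.8 CPM in control 3 (57 UMIs) and 290.1 CPM in cKO 3 (83 UMIs). Fdft1 had 130.4 CPM (43 UMIs) and 174.8 CPM (50 UMIs). Fasn had 36.4 CPM (12 UMIs) and 55.9 CPM (16 UMIs). Insig1 had 6.06 CPM (2 UMIs) and 24.5 CPM (7 UMIs). With 2 libraries and so few UMIs, no comparison was made.

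Outside the 32 genes, Lipa, Lpin1 and Hacd2 were among the tested genes of the same pathways with an unadjusted p under 0.05 by edgeR, each with an adjusted p of 0.994. Lipa, the lysosomal lipase that frees cholesterol from its esters, averaged 6.62 ± 1.30 CPM over the controls and 9.60 ± 0.087 CPM over the cKO libraries (SD, n = 3 each). Lpin1 had 5.55 ± 1.28 and 3.79 ± 0.711 CPM, and Hacd2, an enzyme of fatty acid elongation, had 64.4 ± 1.37 and 56.8 ± 2.95 CPM. These genes were singled out after their values were seen.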
